A study of Oryza sativa with 4 samples.

Results

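Pentatricopeptide repeat proteins are encoded by 45 of the 10455 rice loci in the deposited table. A locus was taken as a member when the description of at least 1 of its transcripts contained the word pentatricopeptide, and the scores of all transcripts of a locus were averaged. The study treated shoots of wild-type rice plants 2 weeks old by inverting the pots and immersing the shoots in a water bath for 10 min. The heat group was held at 42 °C and the control group at 22 °C, and 2 ribosome footprint libraries were made at each temperature each from 10 shoots harvested together and described as biological replicates. In ribosome profiling, mRNA is digested and the fragments shielded by ribosomes are sequenced. Each transcript has 1 deposited score at each temperature, which is taken as its translational efficiency, the footprints per RNA, since the libraries were made to determine that quantity. No header gives its formula, scaling or a log step, and no library has a value of its own. Differences between temperatures are therefore ratios of 2 pooled scores, with no spread between replicates and no test, and the depth behind each score is unknown. None of the 4 libraries is described as an RNA library, so whether a score was set against RNA could not be checked. Read as translational efficiency, a score is not an abundance, so it does not check the tissue. All 15 light-harvesting loci in the table, whose proteins mark green tissue, had scores above 0 at both temperatures. So did 9280 of all 10455 loci.

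Pentatricopeptide repeat proteins are built of short helical repeats, each of which contacts a base of an RNA strand, so that a row of repeats recognises a sequence. They are encoded in the nucleus, and most are carried into plastids or mitochondria, where they edit, splice, cut, stabilise or help to translate organelle transcripts. Members with a DYW domain at the end carry the deaminase that turns C into U, and fertility restorers act on mitochondrial transcripts that cause male sterility. The table's descriptions seldom say which of these tasks a member has: 41 of the 45 loci are described by the repeat alone. Os12g0270200 is described as a DYW protein of RNA editing in mitochondria, Os02g0581900 and Os08g0238100 as similar to PPR986-12, and none names the plastid. All 12 chromosomes, as read from the locus names, hold members, with between 1 on chromosome 9 and 7 on chromosome 3. None of the 45 lies within 1000 locus numbers of another, so the list holds no close runs of the family. Protein and promoter sequences were not used here.

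The scores of the family were low at both temperatures. They ran from 0 to 0.774 at 42 °C, with a median of 0.0266, and from 0 to 0.395 at 22 °C, with a median of 0.0373. Over all 10455 loci the medians were 0.0720 at 42 °C and 0.0792 at 22 °C. The mean of both scores lay below that of the median locus (0.0795) in 29 of the 45 members (64.4%) and reached 0.1 in 13. The order of members was kept in part: across the 37 loci above 0 at both temperatures Spearman's rho between the temperatures was 0.739, against 0.844 across other loci. The other loci were not matched to the members by mean score, and their median mean score was higher (0.101, against 0.0435 in the 37 members). Both values of rho are descriptions of pooled scores from the same libraries.

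More members had lower than higher scores at 42 °C. Of the 37 loci above 0 at both temperatures, 27 were lower and 10 higher, and the median log2 ratio of 42 over 22 °C was -0.83 (exact binomial 95% interval over loci -1.18 to -0.27). Loci are not replicates, so the interval describes the list and not the treatment. Over all 9280 loci above 0 at both temperatures 48.9% were lower, and the median log2 ratio was 0.03. At least 2-fold lower scores were found in 16 of the 37 members (43.2%), against 21.6% of all loci. At least 2-fold higher scores were found in 5 members (13.5%), against 16.1% of all loci. The remaining 16 members lay within 2-fold. At 3-fold, 8 members were lower (21.6%) and 1 higher (2.70%), against 13.5% and 8.2% of all loci. At 4-fold, 6 were lower (16.2%) and 1 higher (2.70%), against 9.8% and 5.36%. If the scores are logarithms, read as log2(1 + ratio), the counts at 2-fold are 18 lower (48.6%) and 6 higher (16.2%). Of other loci of similar mean score, 26.5% are then lower and 18.3% higher. The added scores of all 45 members differed less, at 3.47 at 42 °C and 3.81 at 22 °C. Os03g0856100 made up much of the first sum, and without it the other 44 loci added to 2.69 at 42 °C and 3.48 at 22 °C.

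**Figure D1:**
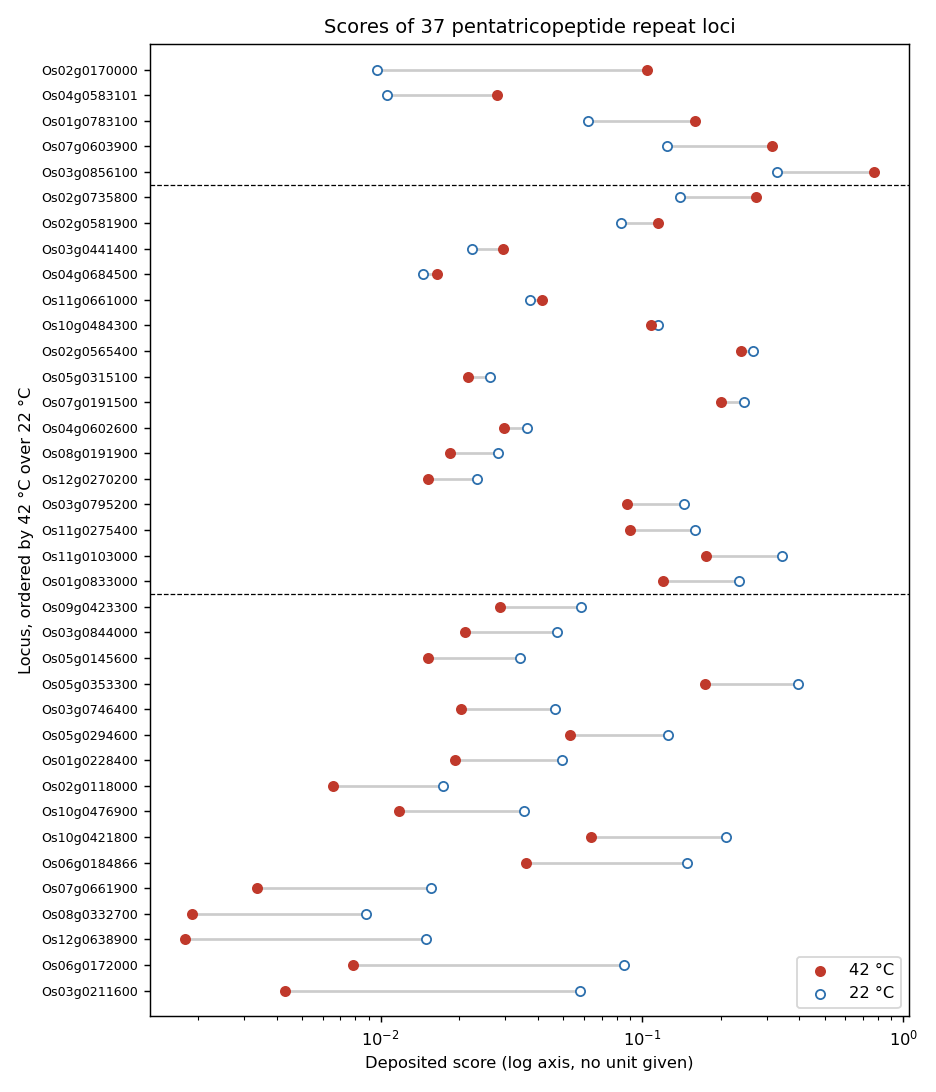
Score at 42 °C (filled) and at 22 °C (open) of each of the 37 members above 0 at both temperatures, on a log axis, ordered by their ratio; each point is 1 pooled score with no error, and the 8 members listed at 0 at 1 or both temperatures are not drawn. The dashed lines set apart the 5 loci at least 2-fold higher (top) and the 16 at least 2-fold lower (bottom).

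The lowest ratios belonged to 2 loci described by the repeat alone. Os03g0211600 had a score of 0.00429 at 42 °C and 0.0579 at 22 °C, a log2 ratio of -3.75. Os06g0172000 had 0.00780 at 42 °C and 0.0856 at 22 °C, a log2 ratio of -3.46. Within their score level these are ratios near the bottom: when all loci are ranked by mean score into 10 equal classes, 4.45% of other loci in its class had a smaller ratio than Os03g0211600, and 3.13% in its class had a smaller one than Os06g0172000. A further 4 members were at least 4-fold lower. Os12g0638900 had 0.00178 at 42 °C and 0.0149 at 22 °C (log2 ratio -3.07), and Os08g0332700 had 0.00189 at 42 °C and 0.00879 at 22 °C (-2.22). Os07g0661900 had 0.00335 at 42 °C and 0.0155 at 22 °C (-2.21). These 3 loci lie in the lowest class of mean scores, where 17.7% to 27.0% of other loci had smaller ratios still. Os06g0184866 had higher scores, 0.0360 at 42 °C and 0.149 at 22 °C, with a log2 ratio of -2.05 that 8.11% of other loci at its level undercut.

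Among the better scored members, lower scores were seen in several of the highest. Os05g0353300, the member with the highest score at 22 °C, had 0.174 at 42 °C and 0.395 at 22 °C, a log2 ratio of -1.18. Os10g0421800 had 0.0640 at 42 °C and 0.209 at 22 °C, a log2 ratio of -1.71. Both ratios lay low for their level, with 8.78% and 7.69% of other loci in the same class below them. Os11g0103000 and Os01g0833000 lay just short of the 2-fold threshold. Os11g0103000 had 0.176 at 42 °C and 0.342 at 22 °C (log2 ratio -0.96), and Os01g0833000 had 0.120 at 42 °C and 0.236 at 22 °C (-0.97). Just past the threshold were Os09g0423300, with 0.0287 at 42 °C and 0.0583 at 22 °C (-1.02), and Os03g0844000, with 0.0210 at 42 °C and 0.0473 at 22 °C (-1.17). Smaller ratios were seen in 31.3% of other loci in the class of Os09g0423300 and 26.8% in that of Os03g0844000. The threshold separates loci that differ little.

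The other lower members had mean scores under 0.1. Os10g0476900 had 0.0118 at 42 °C and 0.0354 at 22 °C (log2 ratio -1.59), and Os02g0118000 had 0.00654 at 42 °C and 0.0173 at 22 °C (-1.40). Os01g0228400 had 0.0192 at 42 °C and 0.0496 at 22 °C (-1.37), and Os05g0145600 had 0.0152 at 42 °C and 0.0343 at 22 °C (-1.18). These ratios were not extreme for their level: 23.1% to 30.8% of other loci in the same classes had smaller ones. Of the 16 lower members, 12 had a mean score below 0.05. Os05g0294600 (0.0531 at 42 °C and 0.126 at 22 °C, log2 ratio -1.25) and Os03g0746400 (0.0203 at 42 °C and 0.0463 at 22 °C, -1.19) complete the group, and their call, like that of Os09g0423300, rests in part on transcripts with other descriptions. In the class of Os05g0294600, 17.8% of other loci had a smaller ratio, and in that of Os03g0746400, 26.7%.

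The 5 higher members included the locus with the highest score of the family. Os03g0856100 had a score of 0.774 at 42 °C and 0.327 at 22 °C, a log2 ratio of 1.24, and 96.0% of other loci in the highest class of mean scores had a smaller ratio. Os07g0603900 had 0.314 at 42 °C and 0.124 at 22 °C, a log2 ratio of 1.34. Os01g0783100 had 0.159 at 42 °C and 0.0622 at 22 °C, a log2 ratio of 1.36. These 3 loci all have mean scores above 0.1 and were at least 2-fold higher, as against 2 loci of that level that were at least 2-fold lower, Os05g0353300 and Os10g0421800. The largest ratio of the family was that of Os02g0170000, with 0.104 at 42 °C and 0.00964 at 22 °C, a log2 ratio of 3.44 that rests on a low score at 22 °C. The remaining locus, Os04g0583101, had 0.0278 at 42 °C and 0.0105 at 22 °C (log2 ratio 1.40). Just below the threshold was Os02g0735800, with 0.273 at 42 °C and 0.139 at 22 °C (0.97). The next locus in order, Os02g0581900, similar to PPR986-12, lay well within 2-fold, with 0.115 at 42 °C and 0.0828 at 22 °C (0.47).

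The 16 members within 2-fold comprised 11 lower and 5 higher loci. Os12g0270200, the editing factor of mitochondria by its description, had 0.0151 at 42 °C and 0.0233 at 22 °C, a log2 ratio of -0.62. This ratio is ordinary for its level: 42.4% of other loci in the same class had a smaller one. Among the best scored members, Os02g0565400 had 0.240 at 42 °C and 0.267 at 22 °C (-0.15), and Os07g0191500 had 0.200 at 42 °C and 0.245 at 22 °C (-0.29). Os10g0484300 had nearly equal scores, 0.109 at 42 °C and 0.116 at 22 °C (-0.09). Os11g0275400 (0.0899 at 42 °C and 0.160 at 22 °C, -0.83) and Os03g0795200 (0.0873 at 42 °C and 0.144 at 22 °C, -0.73) were lower by less than 2-fold. The others, Os08g0191900, Os04g0602600, Os05g0315100, Os11g0661000, Os04g0684500 and Os03g0441400, had log2 ratios between -0.61 and 0.40 and scores under 0.05 at both temperatures.

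A further 8 members were listed at 0 at 1 or both temperatures and have no ratio. At 42 °C alone 3 members were listed at 0 (6.67% of 45, against 4.59% of all loci): Os01g0897500, Os08g0238100 and Os12g0562300, with 0.00456, 0.000919 and 0.000241 at 22 °C. At 22 °C alone 2 members were listed at 0 (4.44%, against 2.24% of all loci): Os08g0538800 and Os04g0218100, with 0.0266 and 0.00787 at 42 °C. Os01g0607800, Os02g0750400 and Os03g0807400 were listed at 0 at both (6.67%, against 4.41% of all loci). With these loci counted by direction, 30 of the 45 members (66.7%) had the lower score at 42 °C and 12 (26.7%) the higher, against 48.0% and 47.6% of all loci. A 0 without the underlying read counts can mean no footprint, no RNA or no estimate, and these cannot be told apart.

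Low scores were past 2-fold more often in the whole table, so the family was set against loci of similar mean score. The 10 classes of mean score divide the 9280 loci above 0 at both temperatures. Other loci, weighted to the spread of the 37 members over these classes, were at least 2-fold lower in 25.9% and at least 2-fold higher in 17.6%. Members exceeded this by 17.3 percentage points for lower scores (43.2%, exact binomial 95% interval 27.1% to 60.5%) and differed from it by -4.10 points for higher scores (13.5%, interval 4.54% to 28.8%). These intervals treat loci as independent draws and cover no replicate error. The median log2 ratio of members minus the median of other loci in their class was -0.72 (95% interval over loci -1.04 to -0.09), and 25 members lay below their class median and 12 above. In 13 members the ratio lay below the 25th percentile of its class, and in 6 at or above the 75th. No test across replicates can be made of this difference, and its size depended on the minimum score and the fold threshold. At 3-fold, 21.6% of members were lower and 2.70% higher, against 16.7% and 9.99% of other loci at their level. At 4-fold, 16.2% were lower and 2.70% higher, against 12.2% and 6.85%. At 2-fold, the excess of lower members was 17.6 points (12 of 30 members) among loci with a mean score of at least 0.02. It was 7.56 points at 0.05, 1.68 points at 0.1, and 2.79 points when 0.01 was added to every score. The median relative to other loci of the same level was -0.46 at a mean of at least 0.05, -0.45 at 0.1 and -0.43 with 0.01 added. The difference for higher members turned to 8.48 points at a mean of at least 0.05.

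**Figure D2:**
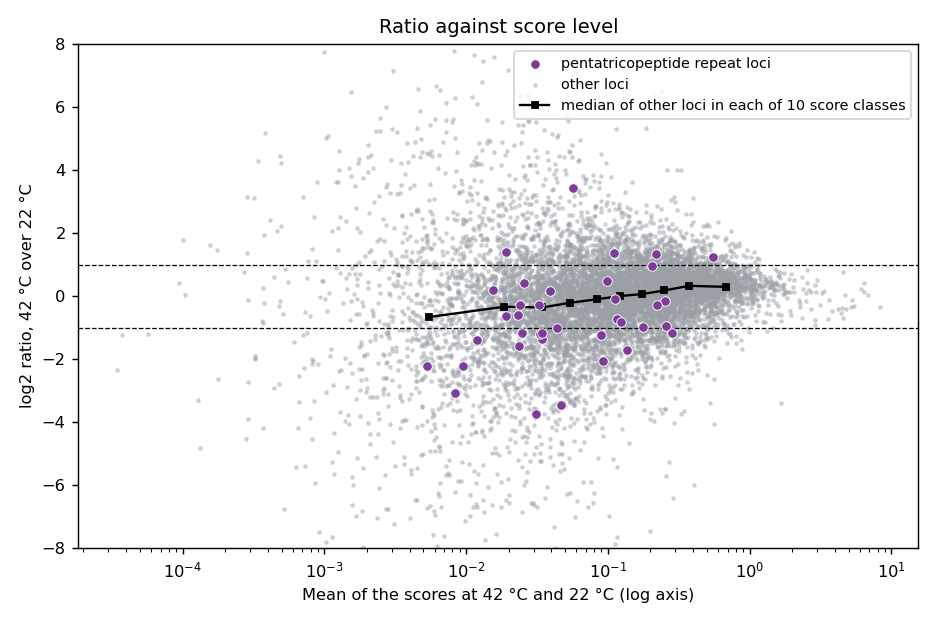
Log2 ratio of the scores at 42 °C over 22 °C against the mean of both scores (log axis), for the 37 members (large points) and 9243 other loci (small points), with the median of the others in each of 10 score classes at the class's median score (line); dashed lines mark 2-fold, and 46 other loci beyond 8 in either direction are not drawn. Of the members 25 lie below the median of their class, and the spread of all loci narrows as the score increases.

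The excess of lower calls was largest in the low and middle scores, whereas the lower median of members was also present at higher scores. Between mean scores of 0.02 and 0.05, 8 of 13 members were at least 2-fold lower and 0 were higher by as much, whereas 31.2% of 1534 other loci were lower and 17.5% higher. Below 0.02, 4 of 7 members were lower and 1 higher, whereas 41.4% of 1487 other loci were lower and 24.1% higher. From 0.05 to 0.1, 2 of 4 members were lower and 1 higher, whereas 24.7% of 1571 other loci were lower and 17.1% higher. At 0.1 and above the calls were nearly balanced, with 2 of 13 members lower and 3 higher, whereas 10.9% of 4651 other loci were lower and 12.7% higher. The median log2 ratio of those 13 members was -0.29, and that of the other loci at that level was 0.20. So few members in each band leave their shares imprecise.

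**Figure D3:**
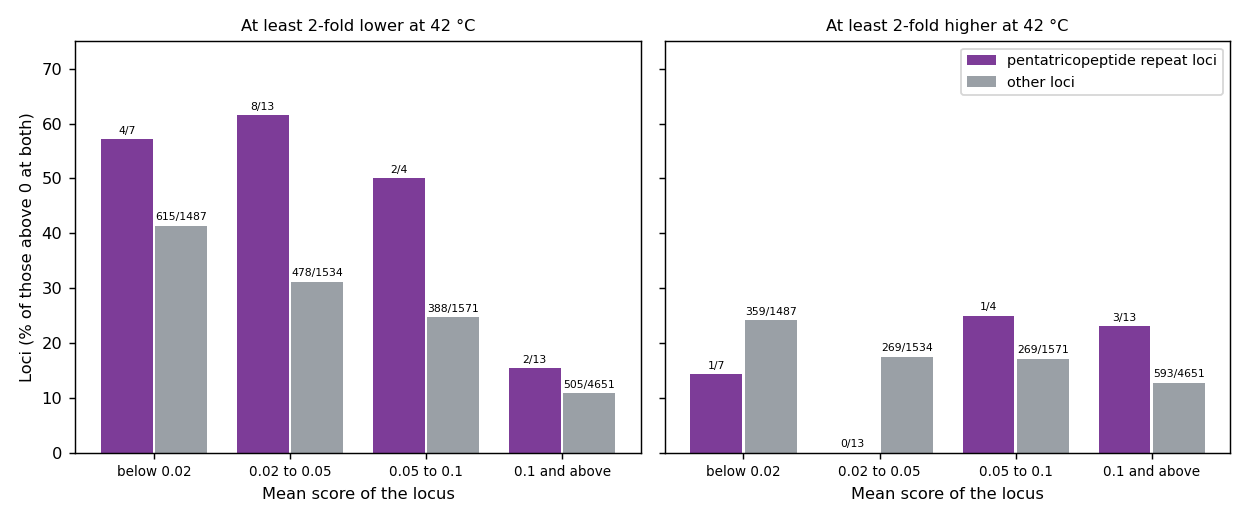
Share of loci at least 2-fold lower (left panel) and at least 2-fold higher (right panel) at 42 °C, in 4 bands of mean score, for members (left bar) and other loci (right bar); the fraction above each bar gives loci called over loci in the band. Members are above other loci for lower scores in each band, by most from 0.02 to 0.05 (8 of 13 against 31.2%), and for higher scores they are above only from 0.05 upward.

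The table lists 58 transcripts for the 45 loci, 9 of which are described in other words, and 10 loci have more than 1 transcript (22.2%, against 27.2% of all loci). Among transcripts above 0 at both temperatures, all went in the same direction in 5 of these 10 loci and in both directions in the other 5. The same count was not made over other loci with several transcripts, so it describes these 10 loci alone. Os02g0170000 was higher in both its transcripts: the repeat transcript had 0.108 at 42 °C and 0.00537 at 22 °C, and the transcript described as a conserved hypothetical protein had 0.101 at 42 °C and 0.0139 at 22 °C. Os12g0638900 was lower in both, with 0.00272 at 42 °C and 0.0265 at 22 °C in the repeat transcript. Os02g0565400 was divided: its transcript 01 had 0.413 at 42 °C and 0.357 at 22 °C, and its transcript 02 had 0.0669 at 42 °C and 0.177 at 22 °C, so the near-equal average of the locus covers a transcript at least 2-fold lower. Transcripts of a locus share sequence, and reads may be divided between them, which was not tested.

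Averaging decided the call in a few loci. With only the transcripts that name the repeat, Os03g0746400 had 0.0121 at 42 °C and 0.00967 at 22 °C, a log2 ratio of 0.33 in place of -1.19. Os05g0294600 had 0.104 at 42 °C and 0.168 at 22 °C (-0.69), and Os09g0423300 had 0.0378 at 42 °C and 0.0673 at 22 °C (-0.83), both within 2-fold. Os03g0441400 passed the threshold for higher scores, with 0.0181 at 42 °C and 0.00657 at 22 °C (1.46), but that call rests on a transcript listed at 0 at 22 °C. Its repeat transcript above 0 at both temperatures had 0.0210 at 42 °C and 0.0131 at 22 °C (0.68), within 2-fold. The count of members at least 2-fold lower was then 13 of 37, 9.39 percentage points above other loci of the same level, and the count at least 2-fold higher was 6 with Os03g0441400 included.

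**Figure D4:**
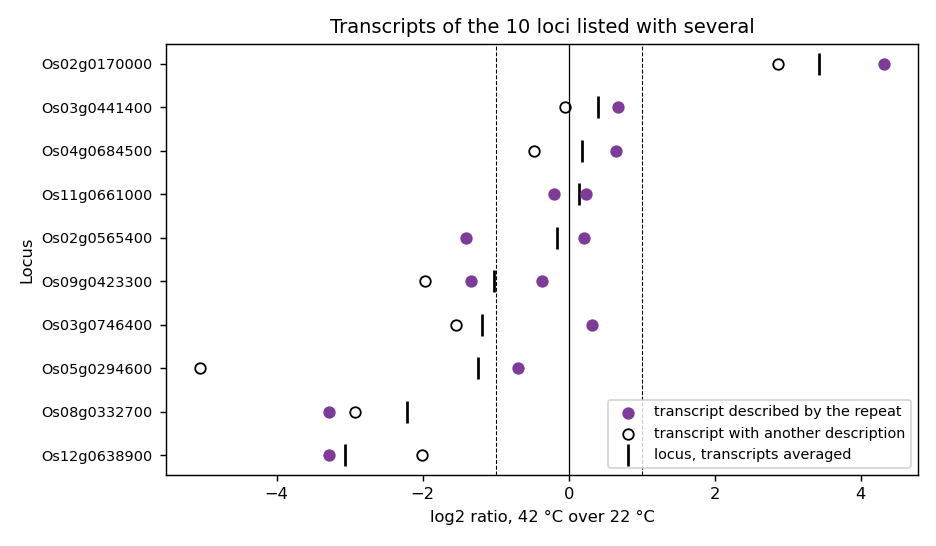
Log2 ratio at 42 °C over 22 °C of each transcript above 0 at both temperatures, in the 10 members with several transcripts; filled points are transcripts described by the repeat, open points those with another description, and the bar is the locus with its transcripts averaged. Os02g0170000 lies at 3.44 with both transcripts to the right of the 2-fold line, whereas Os03g0746400 has its repeat transcript at 0.33 and its other transcript at -1.54.

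Other families were set beside the pentatricopeptide repeat proteins, without a test of the difference. Tetratricopeptide repeat proteins have a similar helical repeat but mostly bind proteins. Their median mean score was close to that of the family (0.0460, against 0.0435 in the 37 members), but their added scores were higher. All 44 tetratricopeptide loci added to 6.33 at 42 °C and 5.63 at 22 °C, against 3.47 and 3.81 in the 45 members. Past 2-fold, 10 of 38 tetratricopeptide loci were lower and 7 higher, with a median log2 ratio of 0.12 (interval -0.73 to 0.71), against -0.83 in the pentatricopeptide repeat loci. The tetratricopeptide shares, 26.3% lower and 18.4% higher, lay near the 24.7% and 17.2% of other loci at their level. Plastid-type ribosomal proteins, chosen by a chloroplast or a subunit of bacterial size in their description, had higher scores (median mean score 0.233). The subunit size alone does not place a protein in the plastid. Past 2-fold, 8 of 45 such loci were lower and 4 higher, with a median log2 ratio of -0.08. These shares, 17.8% lower and 8.89% higher, stand beside 12.8% and 13.4% of other loci at their level.

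The shorter lists of organelle RNA factors held few loci. CRM domain proteins, which help to splice organelle introns, had 2 of 5 loci at least 2-fold lower and 0 higher. Of other loci at their level, 26.8% were lower and 18.3% higher by as much. Os10g0512500 had 0.0105 at 42 °C and 0.0593 at 22 °C, and Os11g0592400 had 0.000693 at 42 °C and 0.00617 at 22 °C. All of the 4 loci similar to DAG protein, a family that includes partners of plant editing factors, were lower, 2 of them at least 2-fold. Of other loci at the level of these 4, 14.4% were at least 2-fold lower and 14.7% higher. Os08g0139100, a plastid form by its description, had 0.0363 at 42 °C and 0.202 at 22 °C, and Os03g0581600 had 0.0741 at 42 °C and 0.164 at 22 °C. Sigma factors, which direct the plastid RNA polymerase to promoters, went both ways, with 3 of 7 loci at least 2-fold lower and the other 4 higher by less than 2-fold. Os11g0448400, with a score of 0.000034 at 42 °C and 0.00143 at 22 °C, is one of these 3. Of other loci at the level of the 7 sigma factors, 20.9% were at least 2-fold lower and 16.1% higher. The words for mTERF proteins matched 0 loci. The only locus matched as a plastid RNA polymerase was the sigma factor Os08g0163400 (0.0854 at 42 °C and 0.172 at 22 °C), and the only organelle RNase was Os09g0482680, similar to RNase Z (0.0338 at 42 °C and 0.182 at 22 °C). Lists of this size show values of single loci and not a family.

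A further 4 loci are described as PPR or fertility restorer proteins without the word pentatricopeptide and were not counted as members. Os10g0495200, similar to a fertility restorer, had 0.0425 at 42 °C and 0.0188 at 22 °C (log2 ratio 1.18). Os03g0309800, similar to PPR2, had 0.0685 at 42 °C and 0.0871 at 22 °C (-0.35), and Os10g0497432, similar to a PPR protein, had 0.0404 at 42 °C and 0.0390 at 22 °C (0.05). Os08g0107700, similar to the restorer Rf1 of mitochondria, was listed at 0 at both. Of the 3 above 0 at both temperatures, 0 were at least 2-fold lower and 1 was higher. Of other loci at their level, 29.0% were lower and 17.5% higher. With them the family had 16 of 40 loci lower (40%) and 6 higher (15%), against 26.2% and 17.6% at the same level. The excess of lower members was then 13.8 points, and the median relative to that level was -0.56.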

How the data were processed

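Ribosome footprints were sequenced from rice shoots in 4 libraries, 2 at 42 °C and 2 at 22 °C. Per the submitters' processing notes, reads were handled with cutadapt and Bowtie2. For their versions, the genome build and the annotation, the sources used here give nothing. The authors deposited 1 score per transcript and temperature and their difference, which matched the score at 42 °C minus that at 22 °C within 4.99e-06 in all 14122 transcripts. The score columns are headed by a temperature alone, per the file headers. No value per library is in the table, so counts of calls are by size (at least 2-fold) and no test was made.

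Scores were averaged over the transcripts of each locus, and log2 ratios were computed without a pseudocount where both scores were above 0. The scoring of level classes was tested on simulated data with classes by geometric mean. The classes by mean score used for the results were not simulated. The reference gene table matched 0 of the 45 members by locus. The members and lists were chosen with earlier results of these data known. Loci to be named were the 8 largest and 8 smallest ratios among members of at least median score, the 6 highest mean scores, loci beside the thresholds, those with a symbol or function and those at 0 at 1 temperature; the other members were named after their scores were seen, so that each is accounted for. Alternatives were other thresholds, minimum scores, added constants, transcripts, member rules, classes, a log reading and centring. Software was matplotlib 3.10.9, scipy 1.17.1, pandas 2.3.3, numpy 2.4.6 and Python 3.11.15.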

Additional observations from a re-analysis of the deposited data

How the results depend on the processing

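The median log2 ratio stayed negative under every alternative run, but its size moved: -0.83 became -0.29 at minimum mean scores of 0.05 and 0.1, -0.48 with 0.01 added and -0.11 with 0.1 added, a constant larger than most members' scores. The median relative to loci of the same level, -0.72, became -0.46, -0.45, -0.43 and -0.082 under these settings and -0.47 with the lowest-numbered transcript. The count of members at least 2-fold lower, 16 of 37, became 4 of 17 loci at a mean score of at least 0.05 and 2 of 13 at 0.1. It was 9 of 42 with 0.01 added to the scores, 0 of 42 with 0.1 added, 8 of 37 at 3-fold and 6 of 37 at 4-fold. Of other loci at the same level, 25.9% were at least 2-fold lower. In the order of these settings that share became 16.0%, 13.7%, 18.6%, 2.09%, 16.7% and 12.2%. The count at least 2-fold higher, 5, became 3 at a mean of at least 0.1, 1 with 0.1 added, 1 at 3-fold and 1 at 4-fold. With 0.1 added the excess of lower members turned to -2.09 percentage points. That excess was 17.6 points at a mean of at least 0.02, 7.56 at a mean of at least 0.05, 1.68 at 0.1, 2.79 with 0.01 added, 10.5 with each transcript on its own and 9.05 with the lowest-numbered transcript. The difference for higher members, -4.10 points, turned to 8.48 at a mean of at least 0.05, 8.69 at 0.1, 0.00693 with 0.01 added and 0.698 with 0.1 added. Among named loci the ratio of Os03g0746400 turned to 0.33 with the lowest-numbered transcript and with repeat transcripts alone, and that of Os02g0565400 to 0.21 with the lowest-numbered transcript. The minimum of 0.02, the repeat transcripts alone and the added PPR descriptions were chosen after the data were seen. Fewer loci enter at higher minimum scores, and a higher threshold can only lower a count. An added constant draws each ratio towards 1 and lets in loci at 0 at 1 temperature. For the other settings the cause was not tested. No paired analysis was possible because the table has 1 score per temperature, and for the same reason leaving out each replicate was not run. The depth behind the low scores is unknown.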
